A study of Mus musculus with 12 samples.

Results

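Macrophages that carry MHC class II but lack CD11c were examined for their response to CGRP. They were sorted from mouse synovium, the membrane that lines the joint cavity, and are titled IAIE in the labels. The comparison set 3 libraries from explants kept for 4 h with 100 nM CGRP against 3 control libraries, titled Healthy, from explants kept without it. These are 6 of the 12 libraries of the series. The other 6 hold CD11c-positive MHCII+ cells of the same 2 treatments and served here for the shared estimate of spread and for a single test of whether the subsets differ. All mice were of the genotype C57BL/6, with no transgene or allele given, and their ages are not stated in the labels. Control cells passed through the same culture in vehicle, enzymatic digest and sort as the treated cells, so that none of the libraries represents undisturbed tissue. The labels do not say whether libraries of a group came from separate mice or explants, so p-values measure only the spread between these libraries, which may be technical.

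CGRP, calcitonin gene-related peptide, is released by pain-sensing nerve endings. Its receptor pairs the calcitonin receptor-like receptor with the accessory protein RAMP1, and it signals mainly through the G protein that raises cyclic AMP, which activates protein kinase A and the transcription factor CREB. In macrophages, cyclic AMP is known for restraining some inflammatory cytokines and for inducing a set of early transcription factors and IL-10. Macrophages that carry MHC class II present peptides from engulfed material to CD4 T cells and bind antibody complexes through Fc receptors.

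Control libraries held 3169953, 3310825 and 2127191 counts and CGRP libraries 4009081, 4506849 and 5364559, so each CGRP library was deeper than each control library. A floor of 3 counts corresponded to between 0.566 and 1.34 CPM (counts scaled to library size, here with TMM factors), and it covers counting error only because reads were amplified by PCR. Spearman's rho across genes lay between 0.935 and 0.941 within control, between 0.954 and 0.963 within CGRP and between 0.866 and 0.903 across the groups, a description in which genes are not independent. Control library 3 was the shallowest. Mitochondrial ribosomal RNA made up between 9.32 and 11.7 percent of the counts. The level of a gene in a sorted bulk sample cannot separate fewer cells of a type from less RNA per cell.

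The sort was checked on its own markers. *Itgax*, which encodes CD11c, stood at 1.24, 6.59 and 10.7 CPM in control libraries 1 to 3 and at 9.53, 1.70 and 4.90 CPM in CGRP libraries 1 to 3 (log2 fold change -0.14 ± 0.64, where ± gives the standard error throughout, edgeR adjusted p 0.938). It was thus low but above the floor, and the groups overlapped. *Cd74*, the MHC class II invariant chain, was at 9583, 7414 and 7472 CPM in control and 6059.9, 7602 and 6345 CPM in CGRP libraries (log2 fold change -0.29 ± 0.12, edgeR adjusted p 0.155). Of the 20 markers of macrophages all were detected, and their summed level ranged from 12106 to 15345 CPM in control and from 12549 to 13554 CPM in CGRP libraries. *Adgre1*, which encodes F4/80, was at 527, 403 and 460.2 against 412, 412 and 385 CPM and *Csf1r*, the receptor for macrophage colony-stimulating factor, at 1551, 1491 and 1276 against 1184, 1143 and 961 CPM. Neither passed the test (edgeR adjusted p 0.376 and 0.0828). *Lyve1*, a marker of another synovial macrophage subset that the gate did not aim at, was present at 541, 536 and 374 CPM in control and 439, 417 and 339 CPM in CGRP libraries and did not pass either (log2 fold change -0.28 ± 0.27, edgeR adjusted p 0.624).

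The comparison asked which genes differ in these cells after CGRP. Of 11927 genes tested, 1114 passed an adjusted p of 0.05, 9.34 percent, with 627 higher (5.26 percent) and 487 lower (4.08 percent) after CGRP. With upper-quartile scaling in place of TMM the split was 564 higher and 580 lower. The CPM of the groups did not overlap for 1084 of these genes, against 24.9 percent without overlap in the whole tested set. Changes were more often large in the rising direction. Among rising genes 295 changed by more than 2-fold and 93 by more than 4-fold, against 165 and 23 among falling genes. The median log2 change was 0.96 for rising genes and -0.82 for falling genes. The median over all tested genes was -0.02. Changes are given below as log2 fold changes.

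**Figure D1:**
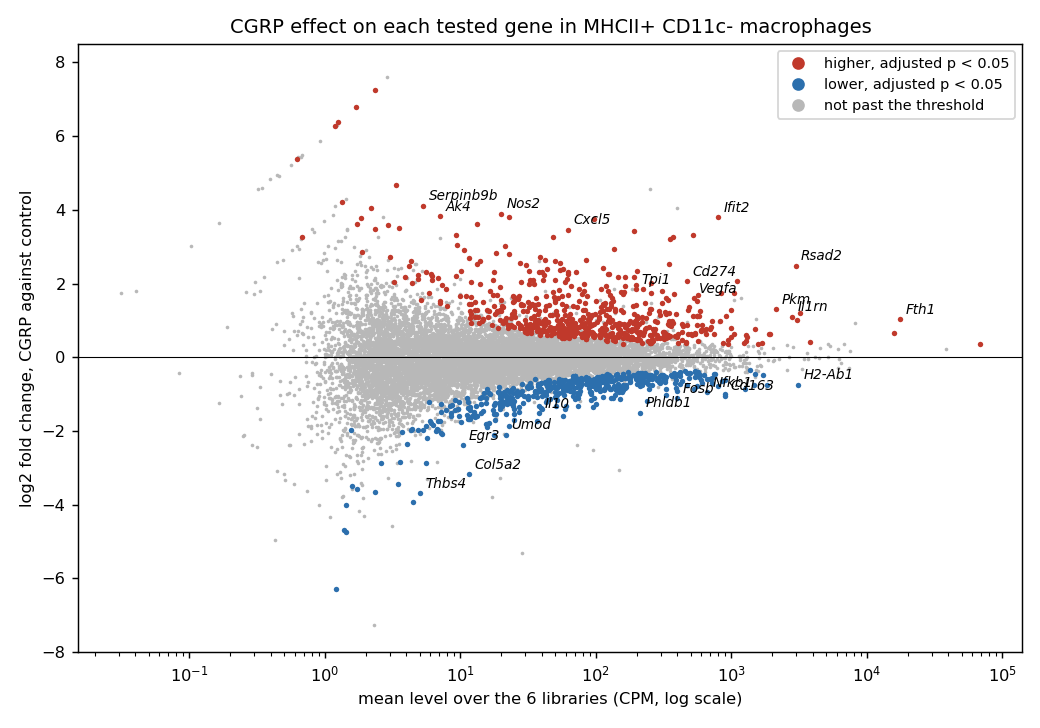
Each point is a tested gene, placed by its mean level over the 6 libraries (CPM, log scale) and its log2 fold change between CGRP and control. Red points passed the threshold and were higher with CGRP (627 genes), blue points were lower (487 genes) and gray points did not pass; the interferon gene Ifit2 lies near a log2 change of 3.81.

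Genes were then read in functional lists. Some lists share members, such as *Clec10a*, *Mgl2*, *Cd163* and *Fosb*, so their counts are not separate observations. The share of members that rose was highest for interferon-stimulated effectors, where 38 of 44 tested genes rose and none fell, followed by glycolysis and glucose uptake (19 higher and 1 lower of 31). MHC class II genes stood at the other end, with 8 of 12 lower and none higher, followed by early response genes of the AP-1, EGR and KLF families (13 of 29 lower and 1 higher). The lists were chosen with results of these data known, so these counts are descriptions. Over all tested genes 5.26 percent rose and 4.08 percent fell, and each list count below is to be read beside these shares.

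**Figure D2:**
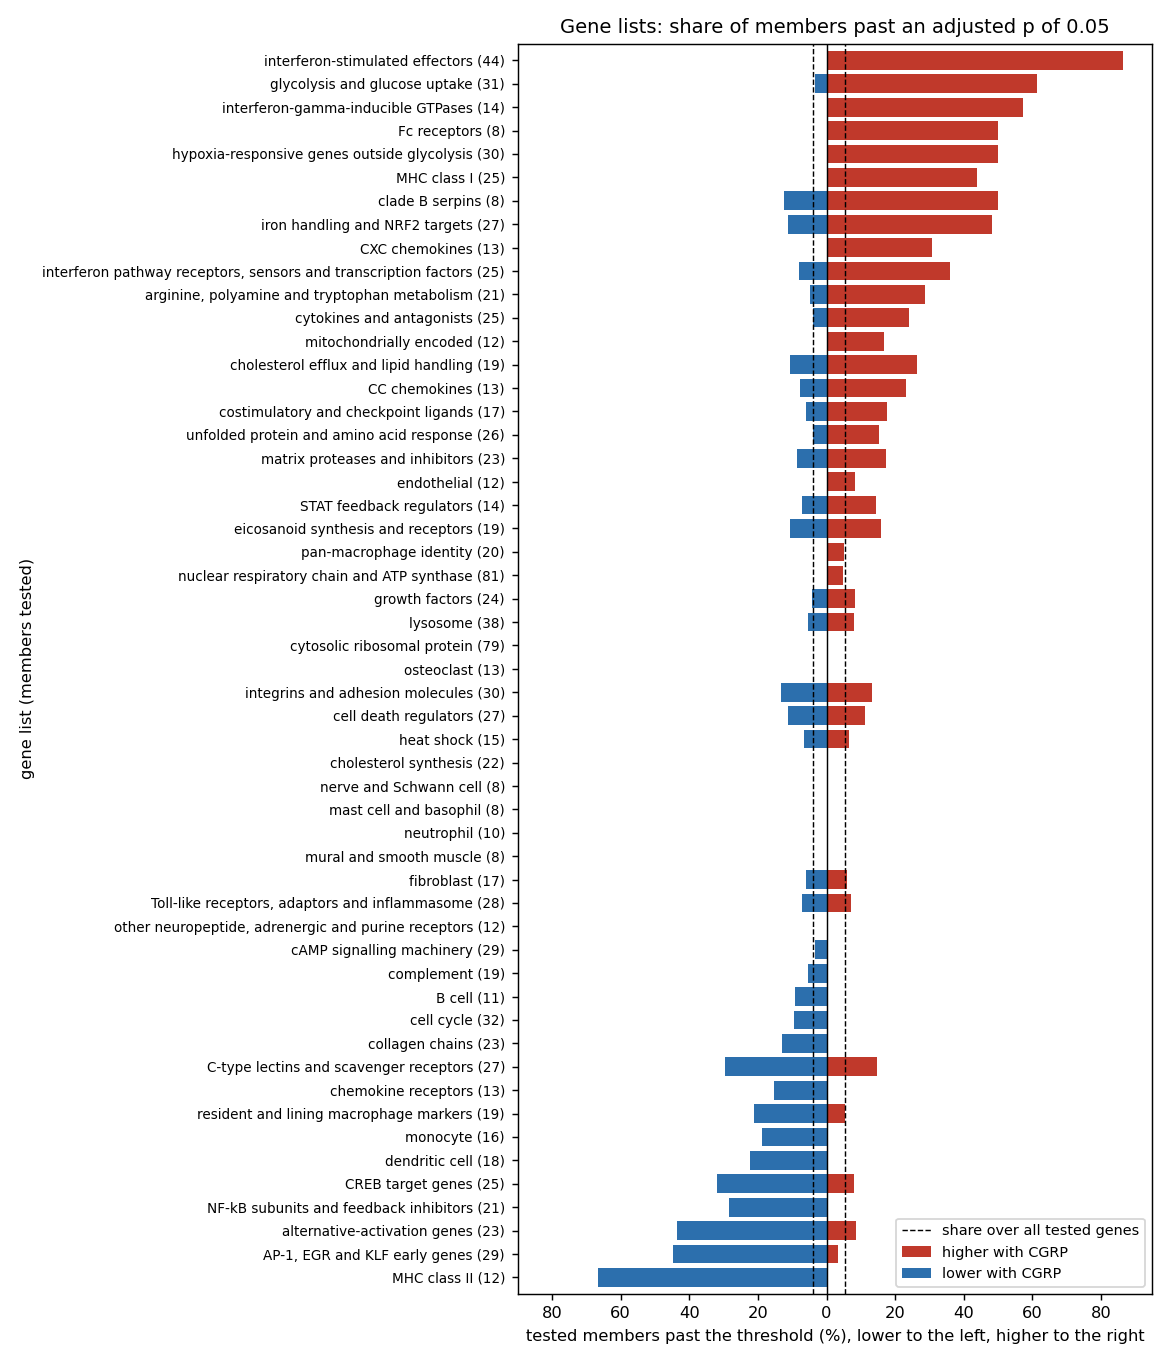
Bars give, for each list with at least 8 tested members, the percent of members past an adjusted p of 0.05 that were higher (red, to the right) or lower (blue, to the left) with CGRP, and dashed lines mark 5.26 and 4.08 percent, the shares over all tested genes. Interferon-stimulated effectors reach 86.4 percent on the right and MHC class II genes 66.7 percent on the left.

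Interferon-stimulated genes were the group that rose most. Type I interferons bind a receptor whose kinases activate transcription factors that bind the interferon-stimulated response element in the promoters of antiviral effector genes. The summed level of the 44 effectors was 4693, 5026 and 7143 CPM in control libraries 1 to 3 and 23276, 26101 and 13832 CPM in CGRP libraries 1 to 3. The lowest CGRP library was thus above the highest control library. Their median log2 fold change was 1.94, against -0.02 over all genes, and the members that rose did so by 0.75 to 3.81.

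The promoters of these genes are shown because they rose together. RefSeq promoters (build GRCm38.p6, 250 bases before to 50 after the start) were available for 34 of the 44 effectors and for 8827 of all tested genes. An interferon-stimulated response element, searched as GAAANNGAA on both strands, was found in 21 of the effectors (61.8 percent), against 7.62 percent of all promoters, 16.8 percent of those of rising and 4.55 percent of those of falling genes. The match is a description of the sequence and does not show binding. In *Ifit3b* there were 3 matches, beginning 187, 153 and 134 bases before the start, in *Rsad2* a match at 119 and in *Ifit1bl1* matches at 192 and 103 bases before it. Capitals mark the matches.
Ifit3b (chr19:34607707-34608006, plus strand): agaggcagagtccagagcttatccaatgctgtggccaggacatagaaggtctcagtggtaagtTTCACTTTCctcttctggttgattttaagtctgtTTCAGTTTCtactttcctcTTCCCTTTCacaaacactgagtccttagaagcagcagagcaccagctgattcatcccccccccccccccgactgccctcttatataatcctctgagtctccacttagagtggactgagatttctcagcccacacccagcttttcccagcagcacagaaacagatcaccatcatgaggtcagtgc
Rsad2 (chr12:26456403-26456702, minus strand): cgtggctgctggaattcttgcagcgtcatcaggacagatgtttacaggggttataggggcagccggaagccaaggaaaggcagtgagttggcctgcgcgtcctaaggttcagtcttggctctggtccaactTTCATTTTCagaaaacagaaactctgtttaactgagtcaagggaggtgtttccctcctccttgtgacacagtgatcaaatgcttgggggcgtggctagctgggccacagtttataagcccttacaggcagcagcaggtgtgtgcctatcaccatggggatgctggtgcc
Ifit1bl1 (chr19:34601919-34602218, minus strand): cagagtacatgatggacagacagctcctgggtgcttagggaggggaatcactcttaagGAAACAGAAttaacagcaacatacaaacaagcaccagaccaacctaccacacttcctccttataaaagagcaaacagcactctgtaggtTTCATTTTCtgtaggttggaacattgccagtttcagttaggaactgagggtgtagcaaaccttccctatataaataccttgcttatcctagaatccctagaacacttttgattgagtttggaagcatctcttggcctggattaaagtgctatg

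Among the effectors, *Ifit2*, which binds viral RNA (chromosome 19, 34550694 to 34576419, build mm10), stood at 82.5, 73.4 and 167 CPM in control and 1878, 1799 and 794 CPM in CGRP libraries (log2 fold change 3.81 ± 0.68, edgeR adjusted p 0.0093). All CGRP libraries lay above all control libraries, with control 3 and CGRP 3 nearest to each other. *Rsad2*, which encodes viperin (chromosome 12, 26442746 to 26456452), was the most abundant of them, at 748, 795 and 1171 CPM in control and 5729.6, 6601 and 2817 CPM in CGRP libraries (log2 fold change 2.48 ± 0.49, edgeR adjusted p 0.0145). *Cmpk2*, a mitochondrial nucleotide kinase next to it on the chromosome, went from 67.9, 71.4 and 152 to 989, 1275 and 589 CPM (log2 fold change 3.31 ± 0.49, edgeR adjusted p 0.00339). *Ifit3* rose from 46.2, 59.9 and 108 to 826, 752 and 439.9 CPM (log2 fold change 3.25 ± 0.56, edgeR adjusted p 0.00792), but 61.8 percent of the 31-base words of its transcripts are shared with *Ifit3b*, so reads of the pair cannot be fully assigned. The same caution holds for *Ifi206*, *Ifi208* and *Ifi209*, interferon-inducible DNA sensors of a gene cluster, which rose by 3.42 ± 0.61, 3.74 ± 0.53 and 3.20 ± 0.54 (edgeR adjusted p 0.00932, 0.00172 and 0.00705) and share between 34 and 47.2 percent of their words with neighbors. *Isg15*, a ubiquitin-like modifier, rose by 1.75 ± 0.33 (edgeR adjusted p 0.0082) and *Mx1*, a gene of the dynamin-like GTPase family, by 2.18 ± 0.50 (edgeR adjusted p 0.029). Of the 6 effectors that did not pass, *Oasl1* was at 937, 818 and 1207 against 2089.8, 2708 and 1329.9 CPM and *Parp14* at 447, 466 and 747 against 1189, 1277 and 767 CPM, with CGRP library 3 close to the highest control library for both (edgeR adjusted p 0.107 and 0.141). Leaving out 1 library ended the call for *Rsad2* (control 1, control 2 or CGRP 2, edgeR adjusted p 0.0533 to 0.0652), *Isg15* (control 1, 0.0542), *Mx1* (any but CGRP 3, 0.0613 to 0.106) and *Ifit3b* (any but control 3, 0.0582 to 0.123). *Ifit1bl1*, whose promoter is shown above, lost its call without control 1, control 2, CGRP 1 or CGRP 2 (edgeR adjusted p 0.0614 to 0.0903).

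The interferon genes did not rise evenly across libraries. Control library 3 was the highest of the controls for 38 of the 44 effectors and CGRP library 3 the lowest of the CGRP libraries for 42. The interferon-gamma-inducible GTPases, which attack the membranes around intracellular microbes, had the same order in 10 and 11 of 14. Their summed level was 351, 337 and 479 CPM in control and 1238, 1455 and 897 CPM in CGRP libraries. Both sums kept the groups apart, with control 3 and CGRP 3 nearest to each other. Without control 3, 36 of 44 effectors rose, and without CGRP 3, 36 of 44, against 27 to 29 on leaving out any other library. Of these GTPases 8 of 14 rose and none fell. *Iigp1* was at 9.0, 14.6 and 20.6 CPM in control and 74.9, 73.1 and 56 CPM in CGRP libraries (log2 fold change 2.23 ± 0.30, edgeR adjusted p 2.51e-05), and *Ifi47*, *Igtp* and *Gbp5* rose by 2.39 ± 0.41, 2.38 ± 0.46 and 1.79 ± 0.33 (edgeR adjusted p 0.00191, 0.00715 and 0.00505). The call for *Igtp* was lost on leaving out control 1 (edgeR adjusted p 0.0508).

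Of the 25 tested receptors, sensors and transcription factors of the interferon pathway, 9 rose and 2 fell. Those that rose included the RNA sensor RIG-I, *Rigi*, at 27.9, 34.7 and 43.9 CPM in control and 209, 216 and 141 CPM in CGRP libraries (log2 fold change 2.42 ± 0.30, edgeR adjusted p 2.38e-04), and *Irf7*, a transcription factor that amplifies interferon production, at 47.2, 74.8 and 77 and 366, 371 and 264 CPM (log2 fold change 2.33 ± 0.41, edgeR adjusted p 0.00694). *Zbp1*, a sensor of Z-form nucleic acid, rose by 2.27 ± 0.30 (edgeR adjusted p 3.65e-04). *Stat2* and *Irf9*, transcription factors of the pathway, rose by 1.52 ± 0.35 and 1.40 ± 0.22 (edgeR adjusted p 0.0231 and 2.80e-04). *Ifnb1*, which encodes interferon beta, was at 45.6, 30.1 and 54.2 CPM in control and 125, 136 and 38.3 CPM in CGRP libraries. It was higher in CGRP libraries 1 and 2 and within the control range in CGRP library 3, and it did not pass (log2 fold change 1.21 ± 0.65, edgeR adjusted p 0.338). The members that fell were *Jak1*, a kinase of the interferon receptors (-0.70 ± 0.13, edgeR adjusted p 5.26e-04), and *Irf8*, a transcription factor of myeloid development (-0.79 ± 0.18, edgeR adjusted p 0.00505). Of 14 feedback regulators of STAT signaling, *Usp18*, which removes ISG15 and blocks the interferon receptor, rose by 2.94 ± 0.47 (edgeR adjusted p 0.00455) and *Socs1* by 1.40 ± 0.31 (edgeR adjusted p 0.00386), whereas *Ptpn6*, the phosphatase SHP-1, fell by 0.81 ± 0.22 (edgeR adjusted p 0.0192). The other 11 did not pass. The adjusted p rose past 0.05 on leaving out 1 library for *Stat2* (control 2, CGRP 1 or CGRP 2, edgeR adjusted p 0.0576 to 0.0838) and *Ptpn6* (control 1, CGRP 2 or CGRP 3, 0.0792 to 0.125). *Stat2* did not pass when the 6 CD11c- libraries were fitted alone (edgeR adjusted p 0.057).

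**Figure D3:**
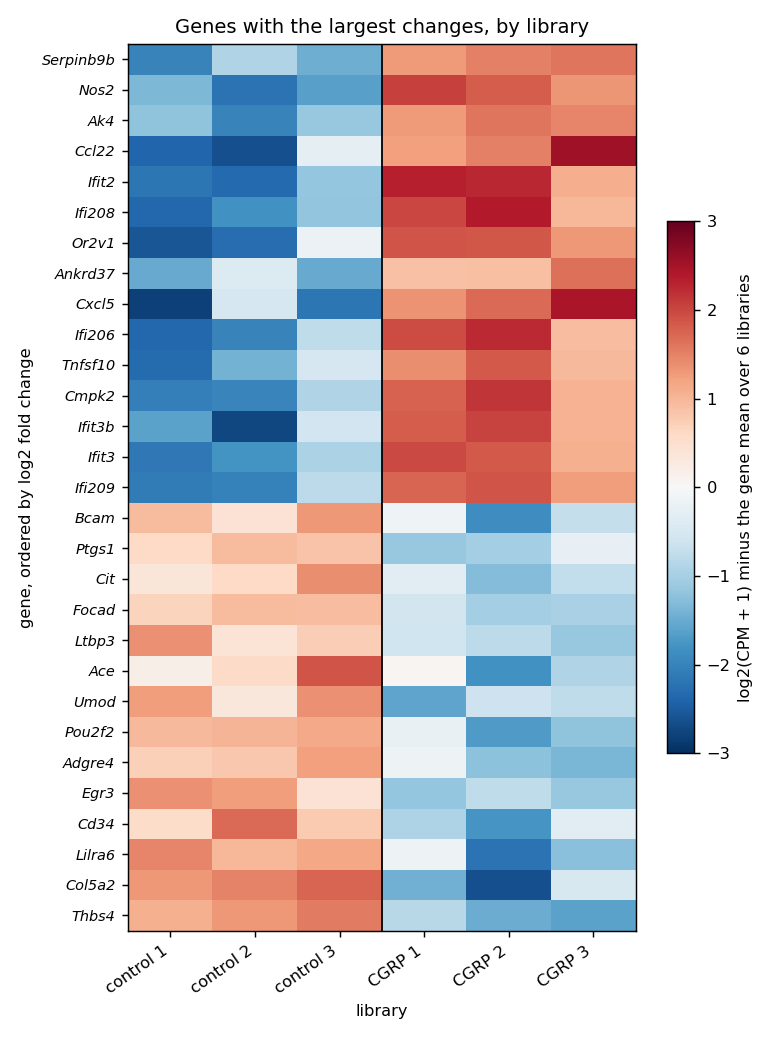
Rows are 29 genes with the largest log2 changes among those past the threshold, ordered by change, and columns are the 6 libraries; color gives log2(CPM + 1) minus the gene's mean over the libraries, red above and blue below it. The interferon genes Ifit2, Cmpk2 and Ifit3 are palest, within each group, in control 3 and CGRP 3, whereas Ccl22 and Cxcl5 are darkest in CGRP 3.

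Genes past the threshold in the MHC class I pathway were all higher, and those in the MHC class II pathway all lower. MHC class I presents peptides cut by the proteasome to CD8 T cells, whereas MHC class II presents peptides from engulfed material to CD4 T cells. Of 25 class I pathway genes 11 rose (4 on leaving out CGRP 2) and none fell, with a median log2 fold change of 0.45, and of 12 class II pathway genes 8 fell and none rose (median -0.79). *Tap1*, a subunit of the peptide transporter, was at 51.2, 47 and 67.1 CPM in control and 197, 214 and 157 CPM in CGRP libraries (log2 fold change 1.79 ± 0.20, edgeR adjusted p 4.51e-06). The immunoproteasome subunit *Psmb8* rose by 1.36 ± 0.20 (edgeR adjusted p 9.81e-05), the loading factor *Tapbp* by 0.95 ± 0.15 (edgeR adjusted p 2.08e-04) and *B2m*, the light chain of class I molecules, by 0.45 ± 0.12 (edgeR adjusted p 0.0225). The nonclassical class I genes *H2-T22* and *H2-T24* rose as well (1.46 ± 0.33 and 1.29 ± 0.34, edgeR adjusted p 0.0139 and 0.0142), of which *H2-T22* shares 51 percent of its words with H2-T10. On leaving out 1 library the threshold was missed for *B2m* (control 2, CGRP 1 or CGRP 2, edgeR adjusted p 0.061 to 0.137), *H2-T22* (CGRP 2, 0.0559) and *H2-T24* (CGRP 2, 0.0534).

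Among class II genes the chains themselves fell by similar amounts. *H2-Ab1* (chromosome 17, 34257689 to 34269419) was at 4248, 3482 and 3957 CPM in control and 2341, 2571 and 2085 CPM in CGRP libraries (log2 fold change -0.74 ± 0.11, edgeR adjusted p 1.52e-04). *H2-Aa* and *H2-Eb1*, which encode other chains of these molecules, fell as well (-0.76 ± 0.13 and -0.74 ± 0.12, edgeR adjusted p 3.65e-04 and 2.41e-04). The peptide editor H2-DM fell more, with *H2-DMb1* at 64.2, 49.6 and 56.4 CPM in control and 17.5, 22.1 and 12.1 CPM in CGRP libraries (log2 fold change -1.73 ± 0.21, edgeR adjusted p 7.00e-06) and *H2-DMa* lower by 1.16 ± 0.20 (edgeR adjusted p 4.13e-04). *H2-DMb2* fell by 1.97 ± 0.43 (edgeR adjusted p 0.0035), with 36.4 percent of its words shared with *H2-DMb1*. *Ciita*, the master activator of class II transcription, was at 38.5, 27.5 and 28.6 against 13.8, 28.4 and 10.9 CPM. Its CGRP library 2 lay within the control range, although the gene passed (log2 fold change -0.84 ± 0.27, edgeR adjusted p 0.0479). With 1 library fewer the call was lost for *Ciita* (any but CGRP 2, edgeR adjusted p 0.0652 to 0.246). *Ciita* did not pass when the 6 CD11c- libraries were fitted alone (edgeR adjusted p 0.1).

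Of 17 costimulatory and checkpoint genes 3 rose and 1 fell. *Cd274*, which encodes the checkpoint ligand PD-L1 (chromosome 19, 29367455 to 29388095), was at 143, 193 and 212 CPM in control and 795, 872 and 619.8 CPM in CGRP libraries (log2 fold change 2.07 ± 0.15, edgeR adjusted p 9.83e-09). *Tnfrsf9*, the costimulatory receptor 4-1BB, rose from 9.0, 4.59 and 3.13 to 49, 26 and 45.4 CPM (log2 fold change 2.80 ± 0.29, edgeR adjusted p 2.70e-06), and *Lgals9*, galectin-9, by 1.36 ± 0.19 (edgeR adjusted p 3.39e-05). The gene that fell was *Icosl*, the ligand of ICOS on T cells (-1.16 ± 0.27, edgeR adjusted p 0.00686). The threshold was not reached on removal of 1 library for *Icosl* (control 1 or CGRP 2, edgeR adjusted p 0.0536 to 0.0712).

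Genes of glucose metabolism formed the other large rising group. Glycolysis splits glucose to pyruvate and lactate, and in macrophages it is raised by inflammatory stimuli and by low oxygen, the latter through HIF-1, which binds a short core sequence in promoters. The summed level of the 31 tested genes of glycolysis, glucose uptake and glycogen was 5884, 6283 and 5511 CPM in control and 11978, 12656 and 14398 CPM in CGRP libraries, and 19 rose and 1 fell (median log2 fold change 1.11). The 30 genes known to respond to low oxygen outside glycolysis summed to 3330.1, 3665 and 3606 CPM in control and 5559, 5646 and 6240.1 CPM in CGRP libraries, and 15 rose and none fell (median 0.62). In contrast to the interferon genes, CGRP library 3 was the highest of the CGRP libraries for both sums. Promoters were available for 30 of the glycolysis genes and 24 of the other hypoxia-responsive genes. The HIF-1 core ACGTG, searched on both strands, occurred in 16 (53.3 percent) and 16 (66.7 percent) of them, against 26.5 percent of all promoters. Across all rising genes it occurred in 23.2 percent and across all falling genes in 24.9 percent. The core was not confined to rising lists. It was found in 10 of 23 promoters of the AP-1, EGR and KLF list (43.5 percent) and 7 of 17 of CREB target genes (41.2 percent). More members of both lists fell than rose. It was found in 11.1 percent of MHC class II and 2.94 percent of interferon effector promoters. *Pgm1* and *Pygl* are shown for the positions of the core, which begins 208 and 181 bases before the start of *Pgm1* and 131 bases before that of *Pygl*. Capitals mark the matches.
Pgm1 (chr4:99929201-99929500, plus strand): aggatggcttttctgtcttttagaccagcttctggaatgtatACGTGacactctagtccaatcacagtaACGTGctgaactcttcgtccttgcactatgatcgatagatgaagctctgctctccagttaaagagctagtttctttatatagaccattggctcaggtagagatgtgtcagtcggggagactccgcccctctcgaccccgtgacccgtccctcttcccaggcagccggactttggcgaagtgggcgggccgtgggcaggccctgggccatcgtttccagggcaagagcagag
Pygl (chr12:70227634-70227933, minus strand): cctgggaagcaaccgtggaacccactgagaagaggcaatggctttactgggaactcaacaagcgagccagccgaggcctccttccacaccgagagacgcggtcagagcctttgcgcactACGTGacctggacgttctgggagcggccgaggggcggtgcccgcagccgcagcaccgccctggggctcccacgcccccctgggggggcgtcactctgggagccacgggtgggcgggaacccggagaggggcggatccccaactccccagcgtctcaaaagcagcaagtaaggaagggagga

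Several enzymes of the pathway were among the genes with the smallest p-values of the whole comparison. *Tpi1*, triosephosphate isomerase (chromosome 6, 124810586 to 124814296), was at 100.2, 82 and 77 CPM in control and 308, 312 and 316 CPM in CGRP libraries (log2 fold change 1.85 ± 0.13, edgeR adjusted p 9.83e-09). *Pgm1*, phosphoglucomutase, which links glycogen with glycolysis, was at 7.76, 14.6 and 7.61 against 68.3, 55.9 and 79.4 CPM (log2 fold change 2.73 ± 0.24, edgeR adjusted p 7.24e-08). Both changed far beyond the spread within either group. *Pkm*, pyruvate kinase, was at 1241, 1301 and 1176 against 2822, 2988 and 3355 CPM (log2 fold change 1.30 ± 0.11, edgeR adjusted p 3.71e-08) and *Gys1*, glycogen synthase, at 9.0, 18.6 and 14.3 against 74.9, 69.7 and 112 CPM (log2 fold change 2.61 ± 0.24, edgeR adjusted p 1.37e-07). *Pgk1* and *Eno1*, later enzymes of the pathway, rose by 1.53 ± 0.13 and 1.73 ± 0.17 (edgeR adjusted p 3.71e-08 and 1.84e-06), but *Pgk1*, *Pkm* and *Eno1* share 54.7, 34.7 and 28.5 percent of their words with copies elsewhere in the genome. *Bsg*, basigin, which carries lactate transporters to the membrane, rose by 1.46 ± 0.13 (edgeR adjusted p 6.51e-08), as did the glucose transporter *Slc2a1* (1.11 ± 0.12, edgeR adjusted p 7.83e-07) and lactate dehydrogenase *Ldha* (1.12 ± 0.11, edgeR adjusted p 4.98e-07). *Aldoa*, aldolase, was at 516, 581 and 487 CPM in control and 1380.2, 1501 and 1791 CPM in CGRP libraries without overlap, yet it did not pass (log2 fold change 1.56 ± 1.17, edgeR adjusted p 0.518). The spread was estimated over all 12 libraries. Fitted to the 6 CD11c- libraries alone its log2 fold change was 1.56 (edgeR adjusted p 8.98e-08). The exception in direction was *Slc2a6*, a lysosomal hexose transporter, which fell by 0.96 ± 0.25 (edgeR adjusted p 0.0148). Removal of a single library ended the call for *Slc2a6* (control 1 or CGRP 3, edgeR adjusted p 0.0906 to 0.131). *Slc2a6* did not pass when the 6 CD11c- libraries were fitted alone (edgeR adjusted p 0.0706).

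Among the hypoxia-responsive genes, *Vegfa*, the vascular growth factor (chromosome 17, 46016993 to 46032369), was at 222, 307 and 252 CPM in control and 794, 789 and 793 CPM in CGRP libraries (log2 fold change 1.60 ± 0.13, edgeR adjusted p 3.71e-08). *Ak4*, a mitochondrial adenylate kinase, went from 1.24, 0.287 and 1.34 to 11.6, 14.8 and 13.4 CPM (log2 fold change 3.83 ± 0.49, edgeR adjusted p 1.47e-05) and *P4ha2*, a collagen prolyl hydroxylase, from 4.03, 3.73 and 5.82 to 34.9, 29.6 and 31.1 CPM (log2 fold change 2.84 ± 0.33, edgeR adjusted p 2.72e-06). The enzymes that mark HIF for degradation rose too, *Egln3* by 2.26 ± 0.42 and *Egln1* by 1.45 ± 0.18 (edgeR adjusted p 0.00659 and 8.61e-06). *Bnip3*, a mitophagy receptor, *Ero1a*, an oxidase of the endoplasmic reticulum, and *Ankrd37* rose by 1.93 ± 0.23, 1.93 ± 0.22 and 3.58 ± 0.75 (edgeR adjusted p 2.90e-05, 2.51e-05 and 0.0027), but antisense genes cover 22.3 percent of the exon bases of *Bnip3* and 26.4 percent of those of *Ankrd37*. *Hif1a* itself rose by 0.59 ± 0.15 (edgeR adjusted p 0.0136). Without 1 library the test was not passed for *Hif1a* (control 1 or CGRP 3, edgeR adjusted p 0.0757 to 0.0866).

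**Figure D4:**
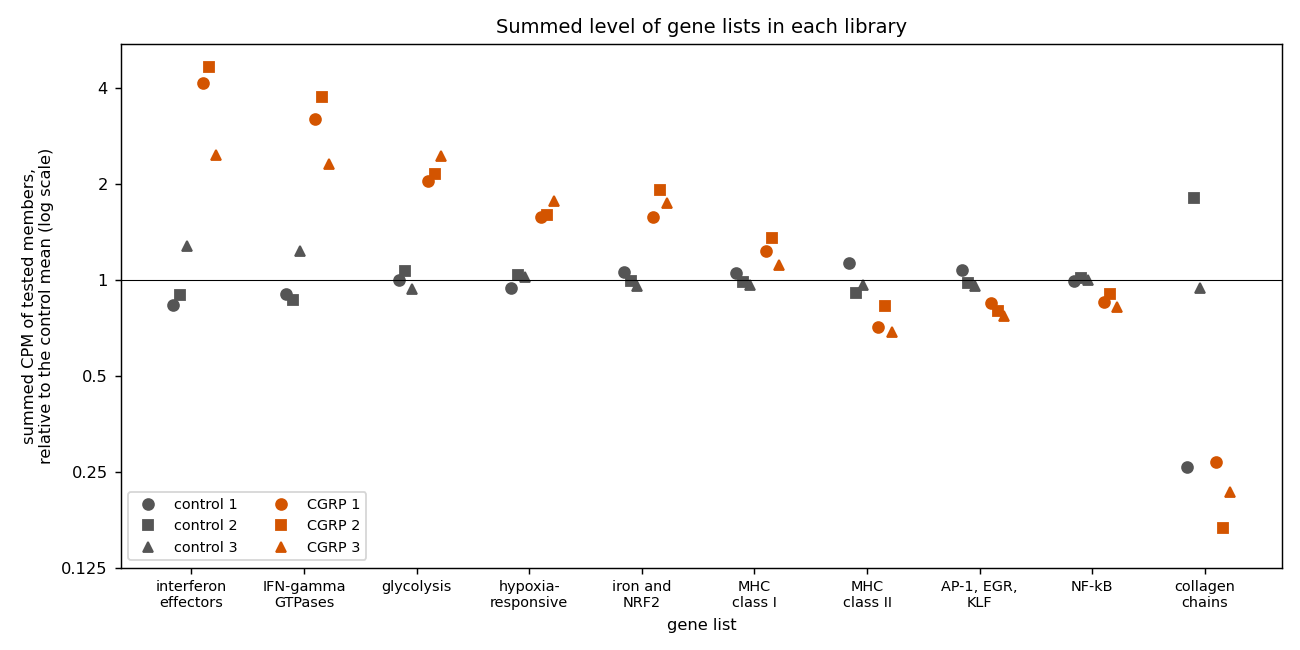
For 10 lists, each point is the summed CPM of the tested members in 1 library, divided by the mean of the 3 control libraries (log scale); gray points are control and orange points CGRP libraries, with the symbol giving the replicate. Control and CGRP points are apart for every list but the collagen chains, whose sums were 219, 1524 and 801 CPM in control and 227, 141 and 183 CPM in CGRP libraries.

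Among genes of iron handling and of the antioxidant response more rose than fell. Macrophages recover iron from heme, store it in ferritin and export it through ferroportin, and NRF2 drives enzymes that buffer oxidation. Of 27 such genes 13 rose and 3 fell (1 on leaving out CGRP 3), and their summed level was 35073, 33023 and 31750.3 CPM in control and 52464, 63606 and 57811 CPM in CGRP libraries. The ferritin heavy chain *Fth1* was at 12384, 11089 and 10986 CPM in control and 21927, 25464 and 23242 CPM in CGRP libraries (log2 fold change 1.04 ± 0.11, edgeR adjusted p 1.10e-06), and heme oxygenase *Hmox1* at 13069.8, 12286 and 11364 against 17873, 21051 and 19373 CPM (log2 fold change 0.67 ± 0.12, edgeR adjusted p 4.13e-04). These were the most abundant genes past the threshold after the mitochondrial ribosomal RNA *mt-Rnr2* (0.36 ± 0.11, edgeR adjusted p 0.0362). The ferritin light chain *Ftl1* rose by 1.01 ± 0.16 (edgeR adjusted p 2.18e-04), with 57.7 percent of its words shared with Ftl1-ps1. The heme transporter *Slc48a1*, ferroportin *Slc40a1* and peroxiredoxin *Prdx1* rose by 1.25 ± 0.14, 1.18 ± 0.19 and 1.20 ± 0.16 (edgeR adjusted p 2.70e-06, 2.42e-04 and 7.77e-05). The cystine transporter *Slc7a11* and the glutathione genes *Gclm* and *Gsr* rose by 1.12 ± 0.19, 0.94 ± 0.16 and 1.07 ± 0.17 (edgeR adjusted p 7.30e-04, 3.42e-04 and 2.65e-04). *Nfe2l2*, which encodes NRF2 itself, fell by 0.55 ± 0.12 (edgeR adjusted p 0.00445), and *Steap4*, a metalloreductase, by 1.47 ± 0.39 (edgeR adjusted p 0.0172). Calls lost on leaving out 1 library were those for *mt-Rnr2* (control 1, control 2, CGRP 1 or CGRP 2, edgeR adjusted p 0.0647 to 0.138) and *Steap4* (control 2, control 3, CGRP 2 or CGRP 3, 0.0534 to 0.0932). *mt-Rnr2* did not pass when the 6 CD11c- libraries were fitted alone (edgeR adjusted p 0.0859).

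Of 21 genes of arginine, polyamine and tryptophan metabolism 6 rose (3 on leaving out CGRP 2) and 1 fell (0 on leaving out any library but CGRP 3). Arginine is the shared substrate of nitric oxide synthase and arginase. *Nos2*, the inducible synthase, was at 3.41, 1.43 and 2.69 CPM in control and 45.8, 38.6 and 27.5 CPM in CGRP libraries (log2 fold change 3.89 ± 0.87, edgeR adjusted p 0.0211), and *Slc7a2*, an arginine importer, at 4.34, 7.45 and 8.06 against 23.8, 27.7 and 32.4 CPM (log2 fold change 2.10 ± 0.40, edgeR adjusted p 0.00196). *Arg2*, the mitochondrial arginase, rose by 1.51 ± 0.44 and *Ass1*, which regenerates arginine from citrulline, by 1.49 ± 0.19 (edgeR adjusted p 0.0308 and 1.55e-05), but antisense genes cover 28.1 percent of the exon bases of *Arg2*, and *Ass1* shares 43.1 percent of its words with Gm5424. *Arg1*, the cytosolic arginase, stood at 6.20, 113 and 12.1 CPM in control and 636, 237 and 1358 CPM in CGRP libraries. Each CGRP library was above each control library, but values within each group varied widely and the gene did not pass (log2 fold change 4.04 ± 1.21, edgeR adjusted p 0.0836). Leaving out single libraries moved the adjusted p above 0.05 for *Nos2* (any but CGRP 3, edgeR adjusted p 0.0544 to 0.0964) and *Arg2* (control 1, control 2, CGRP 2 or CGRP 3, 0.0548 to 0.28).

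Cytokine genes changed in a mixed manner, with 6 of 25 higher and 1 lower. *Il1rn*, the interleukin-1 receptor antagonist, was at 1849, 2003 and 1505 CPM in control and 3493, 4426 and 3535 CPM in CGRP libraries (log2 fold change 1.10 ± 0.14, edgeR adjusted p 7.38e-06). *Il1b*, the cytokine it opposes, was at 658, 847 and 615 against 583, 855 and 915 CPM and did not pass (log2 fold change 0.15 ± 0.17, edgeR adjusted p 0.685), nor did *Il6* (0.53 ± 0.34, edgeR adjusted p 0.431). *Il15*, which sustains NK and memory T cells, and its presenting receptor chain *Il15ra* rose by 1.99 ± 0.40 and 2.22 ± 0.61 (edgeR adjusted p 0.00347 and 0.0209). *Tnfsf10*, the death ligand TRAIL, was at 0.310, 1.43 and 3.58 CPM in control and 16.1, 22.4 and 11.7 CPM in CGRP libraries (log2 fold change 3.32 ± 0.66, edgeR adjusted p 0.00152). *Mif* rose by 1.68 ± 0.29 (edgeR adjusted p 0.00322), with 39.1 percent of its words shared with Gm10169. The member that fell was *Il10*, an anti-inflammatory cytokine that is also a CREB target, at 49.6, 58.8 and 60.9 CPM in control and 28.8, 17 and 13.6 CPM in CGRP libraries (log2 fold change -1.52 ± 0.32, edgeR adjusted p 0.00306). Leaving out 1 library ended the call for *Il15ra* (control 1, control 2 or CGRP 2, edgeR adjusted p 0.103 to 0.139).

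Of 13 CXC chemokines 4 rose and none fell, where 9.34 percent of all tested genes passed. *Cxcl5*, a neutrophil attractant, was at 3.41, 20.6 and 5.82 CPM in control and 77, 98.9 and 167 CPM in CGRP libraries (log2 fold change 3.46 ± 0.59, edgeR adjusted p 0.00692). *Cxcl3*, another, was at 445, 536 and 457 against 1333, 1654 and 1809 CPM (log2 fold change 1.74 ± 0.15, edgeR adjusted p 1.22e-07). *Ppbp*, a platelet-type chemokine, rose by 3.02 ± 0.52 (edgeR adjusted p 0.00211). The interferon-induced T cell attractant *Cxcl10* was at 157, 116 and 128 against 473, 455 and 191 CPM and did not pass (log2 fold change 1.48 ± 0.46, edgeR adjusted p 0.0931). Of 13 CC chemokines 3 rose and 1 fell. *Ccl22*, which attracts regulatory T cells through CCR4 (chromosome 8, 94745590 to 94751699), was at 1.24, 0.860 and 8.51 CPM in control and 26.2, 32.3 and 67.1 CPM in CGRP libraries (log2 fold change 3.81 ± 0.66, edgeR adjusted p 0.00746), highest in CGRP 3, the library with the lowest interferon genes of its group. *Ccl9* rose by 0.80 ± 0.13 and *Ccl3* by 0.88 ± 0.21 (edgeR adjusted p 1.62e-04 and 0.0153), while the monocyte attractant *Ccl2* fell by 0.79 ± 0.21 (edgeR adjusted p 0.0256). Among 13 chemokine receptors none rose, and *Cx3cr1* and *Cxcr4* fell (-1.68 ± 0.41 and -0.56 ± 0.15, edgeR adjusted p 0.0081 and 0.0215). The call was lost on leaving out 1 library for *Ccl3* (any but CGRP 3, edgeR adjusted p 0.0502 to 0.079), *Ccl2* (any library, 0.0587 to 0.126), *Cx3cr1* (CGRP 2, 0.0539) and *Cxcr4* (control 1, control 2, CGRP 2 or CGRP 3, 0.0612 to 0.129). *Cxcl5* did not pass when the 6 CD11c- libraries were fitted alone (edgeR adjusted p 0.0582).

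Secreted mediators of other kinds followed, with 9.34 percent of all tested genes past the threshold. Of 19 eicosanoid genes 3 rose and 2 fell. *Pla2g4a*, the phospholipase that frees arachidonic acid, was at 36, 28.1 and 23.3 CPM in control and 68.8, 112 and 103 CPM in CGRP libraries (log2 fold change 1.69 ± 0.30, edgeR adjusted p 0.00182), and the inducible cyclooxygenase *Ptgs2* rose by 1.28 ± 0.28 (edgeR adjusted p 0.0181). The constitutive cyclooxygenase *Ptgs1* and the prostaglandin E2 receptor *Ptger4* fell (-1.97 ± 0.63 and -0.62 ± 0.19, edgeR adjusted p 0.0479 and 0.0385). Of 24 growth factor genes 2 rose and 1 fell. Beside *Vegfa*, described above, the placental growth factor *Pgf* rose from 18.6, 19.5 and 32.2 to 93.2, 117 and 74.9 CPM (log2 fold change 2.04 ± 0.36, edgeR adjusted p 0.00326), and *Hbegf* fell by 0.59 ± 0.17 (edgeR adjusted p 0.0261). Of 23 matrix proteases and inhibitors 4 rose and 2 fell. The macrophage elastase *Mmp12* was at 11.8, 12.6 and 23.7 CPM in control and 92.9, 83.6 and 99.9 CPM in CGRP libraries (log2 fold change 2.57 ± 0.23, edgeR adjusted p 4.11e-07), *Mmp14* and *Adam8* rose by 0.89 ± 0.23 and 0.98 ± 0.15 (edgeR adjusted p 0.0139 and 1.52e-04), and *Mmp19* and *Adam19* fell (-0.86 ± 0.13 and -1.07 ± 0.17, edgeR adjusted p 8.83e-05 and 2.31e-04). The adjusted p rose past 0.05 on leaving out 1 library for *Ptgs2* (control 1, control 3, CGRP 2 or CGRP 3, edgeR adjusted p 0.0735 to 0.0944), *Ptgs1* (any but CGRP 3, 0.0726 to 0.164), *Ptger4* (control 2, control 3, CGRP 2 or CGRP 3, 0.102 to 0.181), *Hbegf* (control 2, control 3, CGRP 2 or CGRP 3, 0.0724 to 0.172) and *Mmp14* (control 3 or CGRP 3, 0.0613 to 0.069). *Ptgs1* did not pass when the 6 CD11c- libraries were fitted alone (edgeR adjusted p 0.052).

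Of 8 clade B serpins, intracellular protease inhibitors, 4 rose and 1 fell, where 9.34 percent of all tested genes passed. *Serpinb9b* was at 0, 1.15 and 0.448 CPM in control and 8.73, 10.4 and 11.1 CPM in CGRP libraries (log2 fold change 4.11 ± 0.61, edgeR adjusted p 1.59e-04), so that its control level lay near the floor, and *Serpinb9*, an inhibitor of granzyme B, was at 3.72, 6.88 and 7.16 against 26.7, 36.7 and 24.5 CPM (log2 fold change 2.32 ± 0.27, edgeR adjusted p 3.10e-06). *Serpinb2*, plasminogen activator inhibitor 2, and *Serpinb6a* rose (1.72 ± 0.43 and 0.63 ± 0.13, edgeR adjusted p 0.0335 and 0.00203), and *Serpinb8* fell (-0.67 ± 0.21, edgeR adjusted p 0.0468). Of 27 cell death regulators 3 rose and 3 fell (0 to 1 on leaving out any library but CGRP 1), among them *Mlkl*, the executor of necroptosis, at 6.82, 10.3 and 22.4 CPM in control and 60.1, 73.6 and 56 CPM in CGRP libraries (log2 fold change 2.31 ± 0.30, edgeR adjusted p 1.65e-05), and *Casp8*, which restrains it (1.10 ± 0.15, edgeR adjusted p 2.39e-05). The proapoptotic genes *Bcl2l11* and *Pmaip1* fell (-0.47 ± 0.13 and -0.52 ± 0.15, edgeR adjusted p 0.0221 and 0.0239). On leaving out 1 library the threshold was missed for *Serpinb2* (any but CGRP 1, edgeR adjusted p 0.0582 to 0.141), *Serpinb8* (control 1, control 2, CGRP 2 or CGRP 3, 0.0661 to 0.269), *Bcl2l11* (any but control 1, 0.0548 to 0.107) and *Pmaip1* (control 1, control 3, CGRP 2 or CGRP 3, 0.0693 to 0.127). *Pmaip1* did not pass when the 6 CD11c- libraries were fitted alone (edgeR adjusted p 0.0777).

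Receptors by which macrophages bind antibody, microbes and debris, at the surface or inside the cell, were examined next together with adaptor and inflammasome genes. Over all tested genes 9.34 percent passed the threshold. Of 8 Fc receptor genes 4 rose and none fell. *Fcgr1*, the high-affinity receptor for IgG, was at 97.7, 109 and 108 CPM in control and 315, 249 and 257 CPM in CGRP libraries (log2 fold change 1.38 ± 0.26, edgeR adjusted p 0.00422), and *Trim21*, a cytosolic receptor for antibody, at 4.96, 10.3 and 12.1 against 50.3, 75.6 and 28.7 CPM (log2 fold change 2.51 ± 0.48, edgeR adjusted p 0.00335). Of 28 genes of Toll-like receptors, their adaptors and inflammasomes 2 rose (1 on leaving out control 1, control 3, CGRP 1 or CGRP 2) and 2 fell (0 to 1 on leaving out control 2, control 3, CGRP 1 or CGRP 3). *Tlr4* and its adaptor *Myd88* rose (0.83 ± 0.19 and 0.53 ± 0.17, edgeR adjusted p 0.00428 and 0.0479), and the inflammasome genes *Nlrp1b* and *Casp4* fell (-1.94 ± 0.53 and -0.73 ± 0.19, edgeR adjusted p 0.0184 and 0.0143). With 1 library fewer the call was lost for *Myd88* (any but CGRP 3, edgeR adjusted p 0.0613 to 0.249), *Nlrp1b* (control 2, control 3, CGRP 1 or CGRP 2, 0.0728 to 0.0938) and *Casp4* (control 3 or CGRP 3, 0.0631 to 0.108). *Myd88* did not pass when the 6 CD11c- libraries were fitted alone (edgeR adjusted p 0.0876).

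C-type lectins and scavenger receptors split by member, with 4 of 27 higher and 8 lower (median log2 fold change -0.75). Those that rose were *Clec4n* (dectin-2, 1.16 ± 0.18), *Clec4d* (0.99 ± 0.12), *Msr1* (scavenger receptor A, 0.99 ± 0.19) and *Cd36* (0.76 ± 0.13), with edgeR adjusted p-values from 9.48e-06 to 0.00136. Those that fell include common markers of resident or alternatively activated macrophages. *Cd163*, the receptor for hemoglobin-haptoglobin (chromosome 6, 124304656 to 124330527), was at 1569, 1134 and 907 CPM in control and 723, 567 and 459.9 CPM in CGRP libraries (log2 fold change -1.05 ± 0.20, edgeR adjusted p 0.00327). *Clec10a* and *Mgl2*, galactose-type lectins, fell (-1.34 ± 0.25 and -1.08 ± 0.20, edgeR adjusted p 0.00161 and 0.00118), as did *Siglec1* and the mannose receptor *Mrc1* (-1.0 ± 0.21 and -0.49 ± 0.15, edgeR adjusted p 0.00206 and 0.0334). *Mgl2* shares 22.6 percent of its words with *Clec10a*. The threshold was not reached on removal of 1 library for *Mrc1* (control 1, control 2, CGRP 2 or CGRP 3, edgeR adjusted p 0.0616 to 0.178).

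Of 23 genes of alternative activation, the state that interleukin-4 induces, 10 fell (6 on leaving out CGRP 2) and 2 rose, with a median log2 fold change of -0.81. *Retnla*, a secreted marker of that state, was at 394, 471 and 407 CPM in control and 238, 254 and 204 CPM in CGRP libraries (log2 fold change -0.87 ± 0.12, edgeR adjusted p 4.07e-05), *Ear2*, a ribonuclease with 60.5 percent of its words shared with Ear1, fell (-1.43 ± 0.24, edgeR adjusted p 3.74e-04), and *Irf4*, a transcription factor of the response, fell (-0.81 ± 0.15, edgeR adjusted p 9.99e-04). The members that rose were *Ccl22* and *Cd200r1*, an inhibitory receptor (0.96 ± 0.18, edgeR adjusted p 0.00102). Of 19 markers of resident and lining macrophages 4 fell (2 on leaving out CGRP 2) and 1, *Pf4*, rose (0.87 ± 0.25, edgeR adjusted p 0.0443). Among 19 complement genes *C5ar1*, the receptor for C5a, fell by 0.51 ± 0.13 (edgeR adjusted p 0.0137) and the others, *C1qa* among them (-0.43 ± 0.31, edgeR adjusted p 0.492), did not pass. Removal of a single library ended the call for *Pf4* (any but control 2, edgeR adjusted p 0.0681 to 0.148) and *C5ar1* (control 2, CGRP 1 or CGRP 2, 0.0542 to 0.0702).

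Genes that respond to cyclic AMP within minutes to hours were read after 4 h of CGRP. Of 25 CREB target genes 8 fell and 2 rose (median log2 fold change -0.27), and of 29 early genes of the AP-1, EGR and KLF families 13 fell and 1 rose (median -0.46). The summed level of the CREB targets did not fall, at 10258.3, 15135.8 and 13166.7 CPM in control and 15084.5, 16969.6 and 22713.3 CPM in CGRP libraries. The summed early genes were lower, at 15652.9, 14208.6 and 13917.9 CPM in control and 12349.2, 11611.3 and 11248.7 CPM in CGRP libraries. *Fosb*, an AP-1 subunit (chromosome 7, 19302696 to 19310051), was at 546, 550.2 and 542 CPM in control and 268, 256 and 232 CPM in CGRP libraries (log2 fold change -1.11 ± 0.12, edgeR adjusted p 1.73e-06), and *Egr3* at 21.7, 20.1 and 10.7 against 2.91, 4.13 and 3.02 CPM (log2 fold change -2.39 ± 0.56, edgeR adjusted p 0.00663). The groups did not overlap for either. *Egr1*, *Ier2*, *Fos* and the nuclear receptor gene *Nr4a2* fell (-0.92 ± 0.18, -1.04 ± 0.19, -0.60 ± 0.14 and -1.06 ± 0.20, edgeR adjusted p 0.00192, 6.77e-04, 0.00484 and 0.00105). Those that rose were *Ier3* (0.58 ± 0.12, edgeR adjusted p 0.00177) among the early genes and *Vegfa* and *Ptgs2* among the CREB targets. A complete cyclic AMP response element, searched as TGACGTCA, which reads the same on both strands, was found in 3 of 17 CREB target promoters (17.6 percent), against 3.31 percent of all, 1.62 percent of rising and 4.55 percent of falling genes. The promoter of *Btg2*, an antiproliferative early gene on both lists that fell by 0.86 ± 0.15 (edgeR adjusted p 4.34e-04), is shown with its element in capitals, which begins 166 bases before the start.
Btg2 (chr1:134079106-134079405, minus strand): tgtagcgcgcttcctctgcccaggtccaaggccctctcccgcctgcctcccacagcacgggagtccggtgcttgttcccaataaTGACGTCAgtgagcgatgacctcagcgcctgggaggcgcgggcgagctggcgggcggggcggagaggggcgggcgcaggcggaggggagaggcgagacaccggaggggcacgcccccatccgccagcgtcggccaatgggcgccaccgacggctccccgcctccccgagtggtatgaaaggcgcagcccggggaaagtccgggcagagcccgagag

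Few genes upstream of these passed. Of 29 tested genes of cyclic AMP signaling 1 passed, *Adcy7*, an adenylyl cyclase, lower by 0.95 ± 0.19 (edgeR adjusted p 0.00132), while the phosphodiesterase *Pde4b* did not (-0.27 ± 0.13, edgeR adjusted p 0.22). Of the CGRP receptor, *Calcrl* was at 27.3, 29.5 and 45.2 CPM in control and 28.6, 32.6 and 26.2 CPM in CGRP libraries (log2 fold change -0.21 ± 0.23, edgeR adjusted p 0.657). *Ramp1* was lower, at 7.76, 7.17 and 4.92 against 2.12, 3.64 and 2.83 CPM, without overlap between the groups but short of the threshold (log2 fold change -1.21 ± 0.45, edgeR adjusted p 0.0988). *Ramp3*, whose product turns the same receptor toward adrenomedullin, rose from 15.8, 18.3 and 14.3 to 33.6, 37.2 and 33.4 CPM (log2 fold change 1.09 ± 0.16, edgeR adjusted p 9.43e-05).

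Of 21 NF-kB subunits and feedback inhibitors 6 fell and none rose (median log2 fold change -0.22). NF-kB is the transcription factor through which Toll-like receptors and tumor necrosis factor act, and its inhibitors are among its own targets. *Nfkb1*, the p105 subunit (chromosome 3, 135584655 to 135691547), was at 852, 887 and 899 CPM in control and 450.5, 483 and 427 CPM in CGRP libraries (log2 fold change -0.96 ± 0.11, edgeR adjusted p 3.55e-06). The subunit *Rel*, the inhibitor *Tnip3* and the adhesion molecule *Icam1*, a target of NF-kB, fell (-0.69 ± 0.13, -1.11 ± 0.17 and -0.77 ± 0.18, edgeR adjusted p 0.00123, 9.75e-05 and 0.00884). Without 1 library the test was not passed for *Icam1* (control 1 or CGRP 3, edgeR adjusted p 0.0591 to 0.0659).

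Among the remaining genes with the smallest p-values or largest changes, *Phldb1*, a protein of the cell cortex, was at 363, 273 and 302 CPM in control and 119, 113 and 99.9 CPM in CGRP libraries (log2 fold change -1.50 ± 0.13, edgeR adjusted p 7.19e-08). *Pdpn*, podoplanin, a glycoprotein of activated macrophages and of fibroblasts, rose from 190.2, 175 and 162 to 633, 517 and 584 CPM (log2 fold change 1.72 ± 0.15, edgeR adjusted p 6.51e-08). *Gm2a*, the GM2 ganglioside activator of lysosomes, the histone demethylase gene *Kdm6b*, creatine kinase *Ckb* and the guanine nucleotide exchange factor gene *Rapgef6* fell (-1.27 ± 0.13, -1.01 ± 0.12, -1.39 ± 0.19 and -1.10 ± 0.15, edgeR adjusted p 4.98e-07, 2.72e-06, 2.90e-05 and 3.76e-05). The adhesion receptor *Adgre5*, CD97, fell by 1.19 ± 0.13 (edgeR adjusted p 2.11e-06), with 24.6 percent of its exon bases overlapped by other genes. Larger falls at lower levels were those of *Pou2f2*, a transcription factor, from 27.3, 28.1 and 30.4 to 11.4, 3.40 and 5.28 CPM (log2 fold change -2.11 ± 0.35, edgeR adjusted p 2.80e-04), *Umod* from 40.6, 20.9 and 43.9 to 4.76, 10.2 and 9.24 CPM (log2 fold change -2.10 ± 0.37, edgeR adjusted p 4.81e-04) and *Lilra6*, an immunoglobulin-like receptor, from 11.8, 8.31 and 9.40 to 3.18, 0 and 0.943 CPM (log2 fold change -2.86 ± 0.64, edgeR adjusted p 0.00453). Antisense genes cover 19.5 percent of the exon bases of *Umod*, and *Lilra6* shares 49.6 percent of its words with Pirb. *Cd34*, *Adgre4*, *Ace*, *Ltbp3*, *Focad*, *Cit* and *Bcam* fell too, with log2 fold changes from -2.84 to -1.97 (edgeR adjusted p at most 0.0463), and *Or2v1*, annotated as an olfactory receptor, rose by 3.61 ± 0.63 (edgeR adjusted p 6.53e-04). Calls lost on leaving out 1 library were those for *Cd34* (any but CGRP 3, edgeR adjusted p 0.0547 to 0.22), *Adgre4* (control 3, CGRP 2 or CGRP 3, 0.0825 to 0.123), *Ace* (control 3, CGRP 2 or CGRP 3, 0.129 to 0.251), *Focad* (CGRP 2 or CGRP 3, 0.0553 to 0.0578), *Cit* (control 2, control 3, CGRP 2 or CGRP 3, 0.0582 to 0.17) and *Bcam* (control 1, control 3, CGRP 2 or CGRP 3, 0.0568 to 0.104). *Cit* did not pass when the 6 CD11c- libraries were fitted alone (edgeR adjusted p 0.0503).

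Other lists covered basic functions of the cell, with 9.34 percent of all tested genes past the threshold. None of 79 ribosomal protein genes and none of 22 cholesterol synthesis genes passed, and 4 of 81 nuclear respiratory chain genes rose (0 to 2 on leaving out any library but control 1). Of 38 lysosomal genes 3 rose and 2 fell (1 on leaving out control 1, control 2 or CGRP 2), and of 19 lipid handling genes 5 rose and 2 fell (1 on leaving out control 1, CGRP 2 or CGRP 3). Lysosomal acid lipase, *Lipa*, was at 267, 293 and 341 CPM in control and 503, 658 and 537 CPM in CGRP libraries (log2 fold change 0.92 ± 0.14, edgeR adjusted p 1.59e-04), whereas lipoprotein lipase, *Lpl*, fell by 1.33 ± 0.27 (edgeR adjusted p 0.00685). Of 30 integrins and adhesion molecules 4 rose and 4 fell, the largest falls being those of *Itgal* and *Itga4*, leukocyte integrins (-1.35 ± 0.36 and -1.01 ± 0.20, edgeR adjusted p 0.0171 and 0.00144). Of 32 cell cycle genes 3 fell (0 to 1 on leaving out control 1, CGRP 2 or CGRP 3) and none rose, among them *Top2a* at 27, 10.03 and 18.8 CPM in control and 9.26, 7.05 and 6.22 CPM in CGRP libraries (log2 fold change -1.31 ± 0.36, edgeR adjusted p 0.0186). Of 26 genes of the unfolded protein and amino acid response 4 rose and 1 fell, with *Asns*, asparagine synthetase, higher by 1.16 ± 0.29 and *Herpud1* lower by 0.84 ± 0.18 (edgeR adjusted p 0.0107 and 0.00298). Of 15 heat shock genes 1 rose and 1 fell, and each call was lost on leaving out some of the libraries and held on leaving out others. Leaving out single libraries moved the adjusted p above 0.05 for *Itgal* (control 3, CGRP 1 or CGRP 3, edgeR adjusted p 0.0795 to 0.13), *Top2a* (control 1, CGRP 2 or CGRP 3, 0.0745 to 0.17) and *Asns* (CGRP 2, 0.0894).

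Markers of other cells that a sort can carry over were measured beside these results, with 9.34 percent of all tested genes past the threshold. Of 23 tested collagen chains 3 fell (0 to 1 on leaving out any library but control 1) and none rose, and 5 had a log2 change above 0 (median -1.55). Their sum was high in control libraries 2 and 3, and that of control library 1 lay among the CGRP libraries, so the groups overlapped. *Col1a1* was at 35.1, 669.99 and 91.8 CPM in control and 53.5, 17 and 27.2 CPM in CGRP libraries (log2 fold change -3.05 ± 1.14, edgeR adjusted p 0.163), and *Col5a2*, which passed, at 18, 20.6 and 24.6 against 1.85, 0.243 and 4.53 CPM (log2 fold change -3.17 ± 0.77, edgeR adjusted p 0.0192). Fibroblast markers were mostly lower without passing: a log2 change above 0 was found for 2 of 17 (median -1.55), whereas their sum was 313 to 364 CPM in control and 545 to 2141 CPM in CGRP libraries, where *Pdpn* and *Prg4*, the higher members, made up most of it. Among them *Thbs4* fell, from 7.76, 9.17 and 11.2 to 1.32, 0.486 and 0.377 CPM (log2 fold change -3.69 ± 0.64, edgeR adjusted p 4.59e-04), and *Pdpn* rose. *Prg4*, the lubricin of lining fibroblasts, was at 51.2, 4.59 and 2.24 CPM in control and 1433, 2.92 and 2.07 CPM in CGRP libraries, so that 1 CGRP library held nearly all of it (log2 fold change 4.57 ± 2.29, edgeR adjusted p 0.3). Without that library its log2 change was -2.98. Leaving out 1 library ended the call for *Col5a2* (control 1, control 2, control 3 or CGRP 1, edgeR adjusted p 0.0542 to 0.0927).

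B cell markers were low, 217 to 340.01 CPM in control and 108 to 167 CPM in CGRP libraries for the list of 11, and *Ighm* fell by 0.82 ± 0.23 (edgeR adjusted p 0.023). Of 18 dendritic cell markers 4 fell (2 on leaving out control 3), among them the growth factor receptor *Flt3* at 13, 3.44 and 11.2 CPM in control and 3.44, 1.70 and 0.943 CPM in CGRP libraries (log2 fold change -2.20 ± 0.58, edgeR adjusted p 0.0164), and none rose. The summed dendritic list ranged over 515 to 656 CPM in control and 412 to 438 CPM in CGRP libraries. Of 16 monocyte markers 3 fell (0 to 1 on leaving out control 3, CGRP 1, CGRP 2 or CGRP 3) and none rose, and of 12 endothelial markers *Esam* rose by 2.61 ± 0.74 (edgeR adjusted p 0.0291), where *Cdh5* was at 1.55, 1.43 and 0.895 CPM in control and 13.8, 19 and 6.03 CPM in CGRP libraries and did not pass (log2 fold change 3.24 ± 1.94, edgeR adjusted p 0.397). Of the 3 tested T and NK cell markers *Il7r*, which macrophages also express, rose by 0.92 ± 0.24 (edgeR adjusted p 0.0295), and *Klrd1*, at 0, 3.73 and 3.58 CPM in control, fell and had no counts in any CGRP library. The groups thus overlapped at 0 for *Klrd1*, and its control mean was 3.50 times the mean floor of the CGRP libraries. No marker of neutrophils, mast cells, erythroid cells, mural cells, muscle, cartilage and bone or nerve passed, of 10, 8, 5, 8, 5, 4 and 8 tested. The part of these cells in the changes described above was not tested. The call was lost on leaving out 1 library for *Ighm* (control 2, CGRP 1 or CGRP 3, edgeR adjusted p 0.0539 to 0.177), *Flt3* (control 1, control 3, CGRP 2 or CGRP 3, 0.0551 to 0.0953), *Esam* (any but control 1, 0.0586 to 0.0834), *Il7r* (control 2, CGRP 2 or CGRP 3, 0.0971 to 0.121) and *Klrd1* (control 2, CGRP 2 or CGRP 3, 0.052 to 0.0586). *Esam* and *Il7r* did not pass when the 6 CD11c- libraries were fitted alone (edgeR adjusted p 0.0606 and 0.0881).

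Whether the response was particular to CD11c- cells was tested with the interaction of subset and CGRP, defined as the effect in MHCII+ CD11c+ cells minus that in MHCII+ CD11c- cells on the log2 scale. It passed for 7 of 11927 genes (0.0587 percent), so for the other genes named above a difference between the subsets was not shown. The paper sorted both subsets from whole explants, so libraries of different subsets may come from the same explants, which the labels do not state. The fit treated all 12 libraries as independent, and its p-values make no allowance for shared explants. *Nfkb1* fell here from 852, 887 and 899 to 450.5, 483 and 427 CPM, while in CD11c+ cells it was at 1099, 1067 and 1112 CPM in control and 914, 1140.1 and 1065 CPM in CGRP libraries (interaction 0.88 ± 0.16, edgeR adjusted p 0.0229). *Serpinb9* rose here from 3.72, 6.88 and 7.16 to 26.7, 36.7 and 24.5 CPM and was higher in CD11c+ cells from the start, at 80.4, 113 and 107 CPM in control and 112, 114 and 162 CPM in CGRP libraries (interaction -1.95 ± 0.34, edgeR adjusted p 0.0178). The reverse held for *Slc6a6*, the taurine transporter, which was at 529, 589 and 577 CPM in control and 649, 579.96 and 524 CPM in CGRP libraries here (log2 fold change 0.05 ± 0.12, edgeR adjusted p 0.875) and fell in CD11c+ cells from 689, 692 and 636 to 350.00, 338 and 274 CPM (interaction -1.12 ± 0.17, edgeR adjusted p 0.00716). The others, *Thbs4*, *Serpinf1*, *Lamb2* and *Htra1*, encode extracellular matrix or secreted proteins that fibroblasts also make. *Thbs4* was at 1.22, 0 and 0 CPM in CD11c+ control libraries, a total of 3 counts, and at 24.5, 20.8 and 52.8 CPM in CD11c+ CGRP libraries, against its fall in CD11c- cells (edgeR adjusted p of the interaction 3.17e-06). *Serpinf1* was at 14.9, 29.2 and 29.5 CPM in control and 10.6, 6.32 and 3.02 CPM in CGRP libraries here. In CD11c+ cells it was at 0.408, 0.935 and 1.93 CPM in control and 5.18, 7.67 and 5.34 CPM in CGRP libraries (interaction 4.21 ± 0.72, edgeR adjusted p 0.0178). *Lamb2*, a laminin chain, and *Htra1*, a secreted protease, had interactions of 3.46 ± 0.63 and 4.49 ± 0.87 (edgeR adjusted p 0.026 and 0.0495).

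**Figure D5:**
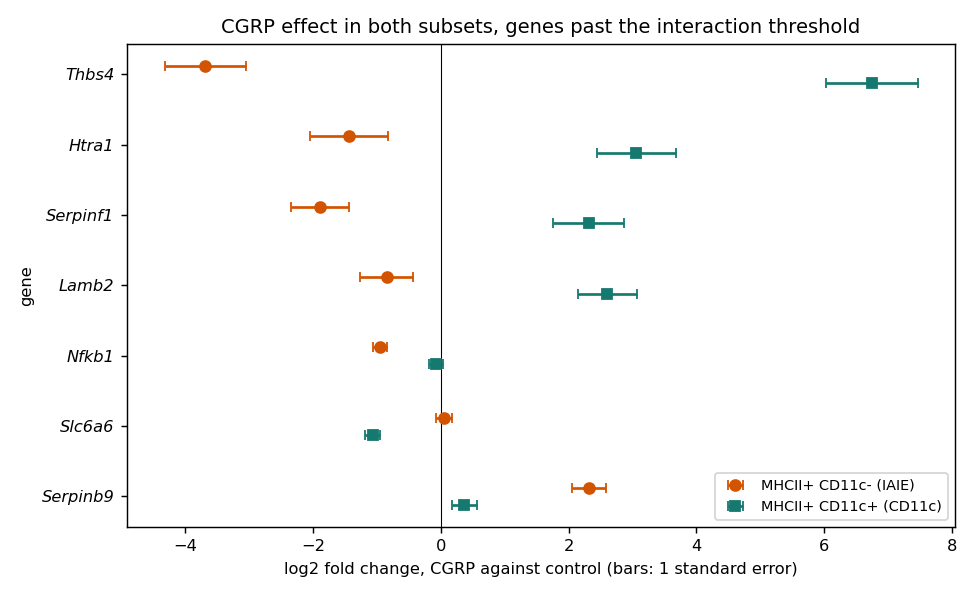
For the 7 genes past the interaction threshold, points give the log2 fold change of CGRP against control in MHCII+ CD11c- cells (circles) and MHCII+ CD11c+ cells (squares), with bars of 1 SE. Thbs4, Serpinf1, Lamb2 and Htra1 lie left of 0 in the former and right of 0 in the latter, and the CD11c+ value of Thbs4 starts from control libraries at the floor and depends on the fit's prior count.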

How the data were processed

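RNA was measured in macrophages sorted from whole-mount synovium explants, 6 libraries of the 12 in the series being compared here. Per the labels and the methods of the study, 5 ng of total RNA per library went into a stranded total-RNA kit that marks strand and were sequenced as read pairs on a NovaSeq. The authors trimmed reads with Trim Galore, checked them with FastQC, aligned them to mm10 with HISAT2 and counted reads per gene with featureCounts, and deposited these whole-number counts without normalization. Not given in the sources used here are the tool versions, the annotation and whether counting used strand, so overlapping and antisense genes are uncertain. Use of molecular identifiers is not stated. A combined file of the counts holds 6 columns that match no label, which were not used.

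Counts of all 12 libraries were scaled by TMM, genes were kept by filterByExpr within groups (minimum count 10, minimum total 15), and the quasi-likelihood test of edgeR 4.0.16 with robust weights (limma 3.58.1, R 4.3.3) was fitted on group means, which is the main test here in place of the DESeq2 fit of the study. Adjusted p-values are Benjamini-Hochberg values over all genes tested, with a threshold of 0.05, and standard errors are the log2 fold change divided by the square root of F. The script was tested on simulated data. Alternatives used DESeq2 1.42.0, limma-voom, sva 3.50.0, other scalings, filters and thresholds, thinned counts, GC and length offsets, a replicate block, the compared libraries alone and each library left out. Shared sequence is the percent of the 31-base words of a gene's transcripts found in other genes of GENCODE vM21. Promoters came from RefSeq (GRCm38.p6). Those printed belong to the called members with the largest change that hold the motif. Genes on chromosome 18 and promoters sharing a long stretch with one already printed were passed over.

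The comparison and the gene lists were chosen with earlier results of these data known. Genes are named by rule: markers of the sort and receptor, called genes with the largest change (at least 5 CPM, groups without overlap), the smallest p or the highest level, and, per list, up to 4 called members each way with the largest change or, where none passed, the most abundant. The following were chosen after their values were seen: *Aldoa*, *Arg1*, *B2m*, *Bnip3*, *Btg2*, *C1qa*, *Cdh5*, *Col1a1*, *Cxcl10*, *Egln1*, *Egr1*, *Ero1a*, *Fos*, *Gclm*, *Gsr*, *H2-Aa*, *H2-Eb1*, *Hif1a*, *Htra1*, *Ifit1bl1*, *Ifnb1*, *Il1b*, *Il6*, *Irf9*, *Isg15*, *Klrd1*, *Lamb2*, *Ldha*, *Mx1*, *Oasl1*, *Parp14*, *Pde4b*, *Prg4*, *Pygl*, *Serpinf1*, *Slc2a1*, *Slc6a6*, *Slc7a11*, *Stat2* and *Tapbp*. Some genes the rule gives are not named, and 1 is not reported here. At between 2127191 and 5364559 counts per library, low genes are measured with few counts.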

Additional observations from a re-analysis of the deposited data

Results flagged for a closer look

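In 7 genes the CGRP effect differed between MHCII+ CD11c+ and MHCII+ CD11c- cells by the interaction test. The differences, CD11c+ minus CD11c- on the log2 scale, were positive for *Thbs4* (10.44 ± 0.96, edgeR adjusted p 3.17e-06), *Htra1* (4.49 ± 0.87, edgeR adjusted p 0.0495), *Serpinf1* (4.21 ± 0.72, edgeR adjusted p 0.0178), *Lamb2* (3.46 ± 0.63, edgeR adjusted p 0.026) and *Nfkb1* (0.88 ± 0.16, edgeR adjusted p 0.0229). They were negative for *Serpinb9* (-1.95 ± 0.34, edgeR adjusted p 0.0178) and *Slc6a6* (-1.12 ± 0.17, edgeR adjusted p 0.00716). The value of *Thbs4* depends on the prior count of the fit because its CD11c+ control libraries held 3 counts in all. Of 19 alternative settings, the interaction passed in 18 for *Slc6a6*, 18 for *Thbs4*, 17 for *Nfkb1*, 16 for *Serpinb9*, 16 for *Serpinf1*, 15 for *Lamb2* and 9 for *Htra1*. A setting whose filter removed a gene counts here as not passed. *Thbs4* passed in every setting that tested it. *Thbs4*, *Serpinf1*, *Lamb2* and *Htra1* are also made by fibroblasts. In CD11c- cells, fibroblast markers had a median log2 change of -1.55 with CGRP, above 0 for 2 of 17, and collagen chains a median of -1.55, above 0 for 5 of 23, the direction in which these 4 genes moved there. *Thbs4* and *Htra1* are themselves on the fibroblast list, and the part of these cells was not tested.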

How the results depend on the processing

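No called gene changed sign under any alternative. Against 1114 genes past the threshold (627 higher and 487 lower), other scalings, filters, tools and offsets gave 970 to 1292, and requiring a log2 change beyond 1 left 47 (44 higher and 3 lower). Testing every gene with at least 1 count gave 841 higher and 427 lower. Leaving out single libraries gave 727 to 1004 genes, 445 to 613 higher and 282 to 391 lower. The count fell by more than 1.5 times without CGRP replicate 2 (727), and that of lower genes also without CGRP replicate 3 (306). Of 225 followed genes with a call, 126 kept it in every alternative but the minimum change. Leaving out 1 library ended between 38 (without CGRP replicate 1) and 67 (without CGRP replicate 2) of these calls. Limma-voom ended 42, the replicate block in the 6 compared libraries alone 28 and the fit to those libraries without the block 23. Thinning ended 12, the GC and length offsets 12 and upper-quartile scaling 7. The replicate block gave 1248 genes, and 1121 in the compared libraries alone (1038 there without it). It rests on replicate numbers that are not said to pair the samples. Deviations of same-numbered libraries from their group means correlated at 0.103, -0.0428 and -0.0168 over 5358 genes. Not every library correlated best with its own number. With 3 libraries per group these correlations cannot decide whether the numbers pair the samples. The 7 interactions became 127 with every gene of at least 1 count, 11 with at least 10 counts in each compared library, 22 with the replicate block, 21 with 1 surrogate variable, 82 with DESeq2, 21 at an adjusted p of 0.1, 1 with the minimum change, 14 with thinned counts and 18 without robust weights, a setting chosen after seeing the data (which gave 1099 genes in the main comparison), and 7 to 13 on leaving out 1 library. The cause was not tested. Genes without a call that changed sign were *Slc6a6* (-0.00168 with upper-quartile scaling, -0.0199 to 0.13 on leaving out 1 library), *Itgax* (-0.74 to 0.42), *Calcrl* (-0.34 to 0.0574) and *Prg4* (-2.98 to 7.03). Depth limits what can be said of genes near the floor of 3 counts.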
